A study of Mus musculus with 6 samples.

Results

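The genes examined here are the forkhead (Fox) and Sox transcription factor genes, as seen in an anti-V5 ChIP-seq experiment for Dppa2 in mouse ESCs. They were chosen by symbol from the protein-coding genes of the GENCODE M1 annotation of mm9: 43 entries with a symbol beginning Foxa to Foxs followed by a digit, and 19 entries named Sox with a number. The 62 entries hold 61 symbols, since Sox4 is entered 2 times (Foxl1 and Sox1 were not analysed here), out of 22367 protein-coding genes considered. A gene was called Dppa2-bound when the midpoint of a peak lay within 1000 bp of the transcription start site (TSS) of any of its transcripts.

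The cells were CGR8, a mouse ESC line kept without feeders in serum and leukemia inhibitory factor, stably expressing Dppa2 with a V5 tag at its N terminus from a transfected pPyCAG-driven vector, with clones selected in puromycin. The parental CGR8 line without a V5 tag gave the control ChIP. Each condition was sequenced as 1 library, which leaves the error between replicates unknown, and the depth is likewise unknown because peaks and not reads were listed. The tagged protein was expressed from an added vector, and a peak list carries no RNA level, so that the ESC identity of the cells could not be checked against marker genes. The 3336 listed peaks each carry a score, the −log10 of the MACS p-value multiplied by 10. Every peak in the list is named as a TSS peak and 98.4% of midpoints lay within 1000 bp of an annotated TSS, so that distal elements of these genes could not be examined.

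Forkhead proteins bind DNA through a winged-helix domain, and Sox proteins through an HMG box related to that of Sry, which bends the DNA it binds. Both families are old and large, with subfamilies named by letter, and their members direct cell fate choices in the endoderm, neural crest, vasculature, skeleton and gonads. In ESCs, Sox2 acts together with Oct4 in the pluripotency network and Foxd3 is required for the maintenance of pluripotent cells. Most other members are known as regulators of lineages that form later. Dppa2 itself is a protein with a SAP DNA-binding domain found in ESCs and the early germ line.

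Sequences are shown first, since the share of bound genes followed the CpG content of the promoter. Each is 240 bp of mm9 on the strand of the gene, from 5′ to 3′, with every CpG dinucleotide in capitals, and none covers an annotated UTR.

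The first sequence is from the midpoint of the peak in Foxd3, which lay too far from the TSS to count as bound. It is coding (chr4:99324129-99324368, plus strand) and was the densest shown, with 40 CpGs.
Foxd3: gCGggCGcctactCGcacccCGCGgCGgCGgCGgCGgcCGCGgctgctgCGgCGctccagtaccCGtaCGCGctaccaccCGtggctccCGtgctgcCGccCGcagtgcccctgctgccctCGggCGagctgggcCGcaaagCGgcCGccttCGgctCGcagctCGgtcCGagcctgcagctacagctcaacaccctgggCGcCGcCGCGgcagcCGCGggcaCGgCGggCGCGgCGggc

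The other set compares the SoxF genes over the 240 bp just upstream of their TSSs, because Sox7 and Sox18 were bound and Sox17 was not. Sox7 (chr14:64562271-64562510, plus strand) has 26 CpGs there, Sox17 (chr1:4486495-4486734, minus strand) has 8 and Sox18 (chr2:181406346-181406585, minus strand) has 11. The CpG observed-to-expected ratio of the window is 0.73 for Sox7, 0.462 for Sox17 and 0.434 for Sox18. By this ratio the unbound Sox17 is thus above the bound Sox18.
Sox7: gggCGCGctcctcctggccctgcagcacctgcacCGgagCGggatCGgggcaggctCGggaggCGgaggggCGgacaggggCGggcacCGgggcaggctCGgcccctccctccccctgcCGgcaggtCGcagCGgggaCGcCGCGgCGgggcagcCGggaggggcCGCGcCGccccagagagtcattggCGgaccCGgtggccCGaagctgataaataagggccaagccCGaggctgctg
Sox17: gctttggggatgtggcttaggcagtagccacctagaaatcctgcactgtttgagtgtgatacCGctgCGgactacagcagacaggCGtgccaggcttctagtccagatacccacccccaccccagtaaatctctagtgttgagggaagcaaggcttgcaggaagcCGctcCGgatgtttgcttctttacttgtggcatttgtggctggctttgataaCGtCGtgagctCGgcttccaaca
Sox18: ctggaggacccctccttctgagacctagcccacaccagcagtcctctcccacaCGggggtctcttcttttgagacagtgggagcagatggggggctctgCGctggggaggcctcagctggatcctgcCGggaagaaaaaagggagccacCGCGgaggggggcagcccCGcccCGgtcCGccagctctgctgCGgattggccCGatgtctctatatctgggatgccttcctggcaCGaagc

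Of the 62 forkhead and Sox entries, 14 were bound by Dppa2, which is 22.6% (95% Clopper-Pearson interval, exact for counting error and covering nothing else, 12.9 to 35%). Among the 22305 other protein-coding genes, 3155 were bound, or 14.1%. The forkhead genes had 8 of 43 bound, or 18.6% (8.39 to 33.4%), and the Sox genes 6 of 19, or 31.6% (12.6 to 56.6%). Both intervals are wide and contain the share of the other genes. The Sox count rested on the settings, since 3 of 19, or 15.8%, were left both at a score of at least 200 and with a window of 500 bp, where 8.04% and 12.6% of the other genes were bound. At a score of at least 200, which is a p-value 10 orders of magnitude below that of the weakest listed peak, 8 members were left, or 12.9%, beside 8.04% of the other genes.

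The members start from CpG-rich promoters more often than genes do in general. In the 1000 bp around 1 TSS per gene, their median CpG observed-to-expected ratio was 0.731 and their median GC content 63.5%, against 0.543 and 54.8% for the other genes. When each member was given the bound share of the other genes in its own decile of the CpG ratio, the mean came to 20.1%, or 12.4 genes, beside the 14 observed. For the forkhead genes this share was 19.8%, or 8.52 genes beside 8, and for the Sox genes 20.6%, or 3.92 genes beside 6. With deciles of the CpG count it was 24.4%, with classes of GC content and CpG ratio together 26%, and with 2000 bp around the TSS 24.5%, each above the observed 22.6%. The bound share of forkhead and Sox genes was thus near that of genes of like CpG content, and which side of it the observed value took depended on the measure.

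Across the deciles, the bound share of other genes climbed from 0.715% in the lowest to 34.7% in the highest. In the upper pair of deciles 8 of 23 members were bound, or 34.8%, beside 31.5% of the others. In deciles 6 to 8 it was 4 of 22, or 18.2%, beside 17.3%. In the lower 5 deciles 2 of 17 were bound, or 11.8% (1.46 to 36.4%), beside 5.31%. All 4 in the middle range came from decile 8, where 4 of 8 were bound (15.7 to 84.3%), beside 20.2% of the others. None of the 14 members in deciles 6 and 7 was bound, beside 14.8% and 16.9% of the others. The interval was 0 to 41% in each, so that these counts cannot be told apart from the shares of the others.

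**Figure D1:**
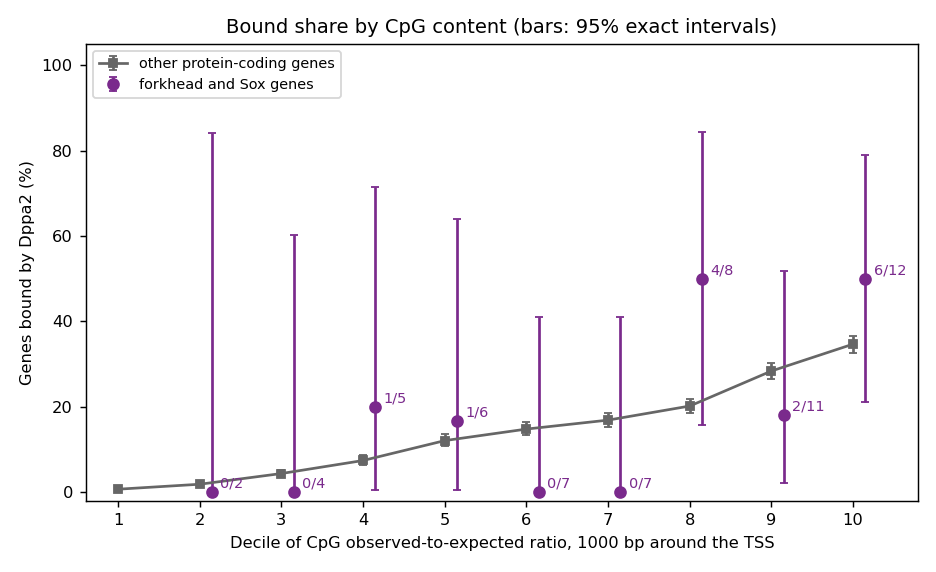
Share of Dppa2-bound genes (percent, y axis) by decile of the CpG observed-to-expected ratio in 1000 bp around the TSS (x axis), for other protein-coding genes (squares) and for forkhead and Sox genes (circles, with bound over all members), with 95% exact intervals as bars. The other genes rise from 0.715% to 34.7%, and the intervals of the members are wide in deciles 2 to 10, decile 1 holding no member.

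The Sox genes bound were Sox7, Sox10, Sox12, Sox13, Sox18 and Sox30. The highest score among all members belonged to Sox18 (ENSMUSG00000046470.5), a regulator of blood and lymphatic vessel formation. Its peak (chr2:181404617-181406860) scored 490.4 and ranked 385 among the 3336 peaks, and it covered 95.8% of this short gene, all of its coding sequence included. Sox7 (ENSMUSG00000063060.5), another SoxF gene that acts in endothelium and primitive endoderm, had a low-ranking peak (chr14:64561315-64563274) with a score of 128 at rank 2921. Sox17, the SoxF gene of definitive endoderm, had no peak midpoint nearer than 1420 kb. With all peaks and the 1000 bp window, SoxF was the only one of the 27 subfamilies in which more than 1 member was bound. This depended on the settings. Sox7 was not bound at a score of at least 200, nor Sox18 with a window of 500 bp. With a window of 5000 bp or any base of the peak, Foxd3 joined Foxd2 in Fox D. The CpG ratio around the TSS was 0.768 for Sox7, 0.769 for Sox18 and 0.413 for Sox17.

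Sox10 (ENSMUSG00000033006.8) directs neural crest, glial and melanocyte development. Its peak (chr15:78992804-78997025) was the widest of the members at 4222 bp and ranked 15 in width among all peaks. It scored 411, at rank 589, and its midpoint lay 2 bp downstream of a TSS, in the UTR. The CpG ratio in the 1000 bp around that midpoint was 0.326, with 29 CpGs, the lowest of the member peaks. The SoxE relatives Sox8 and Sox9 had higher ratios at their TSSs, 0.687 and 0.796, and were not bound. The nearest midpoint was 98.3 kb from Sox8 and 1889 kb from Sox9, the regulator of cartilage and testis formation.

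The other bound Sox genes had intermediate scores. Sox30 (ENSMUSG00000040489.5), a SoxH gene of the testis needed for sperm development, scored 204 at rank 1926 (chr11:45793222-45795084). Sox13 (ENSMUSG00000070643.5), a SoxD gene, scored 190.1 at rank 2099, with the peak (chr1:135318961-135321271) centred 838 bp downstream of the TSS in an intron. Sox12 (ENSMUSG00000051817.7), a SoxC gene of neural and mesenchymal progenitors, scored 174 at rank 2286 (chr2:152222091-152224262), and its peak covered 100% of the coding sequence. The related Sox4 and Sox11 were not bound although their TSS regions reach CpG ratios of 0.945 and 0.971. Sox2, which has a ratio of 0.833, had no midpoint within 849.8 kb.

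The 8 bound forkhead genes fell in 8 of the 19 lettered subfamilies, with 1 in each. Foxn2 (ENSMUSG00000034998.12) had the highest score, 479.6 at rank 403, from a peak centred in an intron (chr17:88839450-88841341). Foxs1 (ENSMUSG00000074676.2), a small gene of 1 exon known from neural crest derivatives and perivascular cells, scored 338 at rank 897, and its peak (chr2:152758023-152759418) covered 85.6% of the coding sequence. Like Sox10 it had few CpGs, with a ratio of 0.383 around the midpoint. These 2 genes were the only bound members in the lower 5 deciles of the CpG ratio, yet their scores were among the 4 highest of the 14. Foxi3 (ENSMUSG00000055874.6), which acts in the inner ear and in hair and tooth placodes, scored 287 at rank 1216 (chr6:70906157-70907381).

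Around the median score of all peaks lay Foxj3 and Foxo6. Foxj3 (ENSMUSG00000032998.9), a relative of the ciliogenesis regulator Foxj1, scored 228 at rank 1669 (chr4:119211601-119213263), and the midpoint of the same peak lay 697 bp from the TSS of AA415398, a non-coding gene on the opposite strand. Foxo6 (ENSMUSG00000052135.7), the FoxO factor of the brain, scored 211 at rank 1847 (chr4:119958992-119960629). The FoxO genes that respond to insulin signalling in most tissues were not bound. The nearest midpoint was 222 kb from Foxo3, 991 kb from Foxo1 and 1279 kb from Foxo4, although Foxo1 had the highest CpG ratio of all members, 1.05.

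The lowest scores among the bound forkhead genes belonged to Foxc2, Foxd2 and Foxq1. Foxc2 (ENSMUSG00000046714.6), needed for lymphatic vessels and the skeleton, scored 129 at rank 2900 (chr8:123639903-123641891), with the midpoint 826 bp inside the gene and 92.9% of the coding sequence covered. Foxd2 (ENSMUSG00000055210.3), expressed in mesoderm, scored 122 at rank 3014 (chr4:114580961-114582520). The midpoint of this peak was 237 bp upstream of Foxd2 but only 122 bp upstream of the lincRNA gene 9130206I24Rik on the opposite strand, so that the peak cannot be given to one of the pair. Foxq1 (ENSMUSG00000038415.8), a gene of the hair shaft, scored 108 at rank 3211 (chr13:31649478-31650609), close to the lowest score in the list, 100.01. A second peak followed inside the same gene (chr13:31650721-31652131), with a score of 128 and its midpoint 1387 bp downstream of the TSS.

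**Figure D2:**
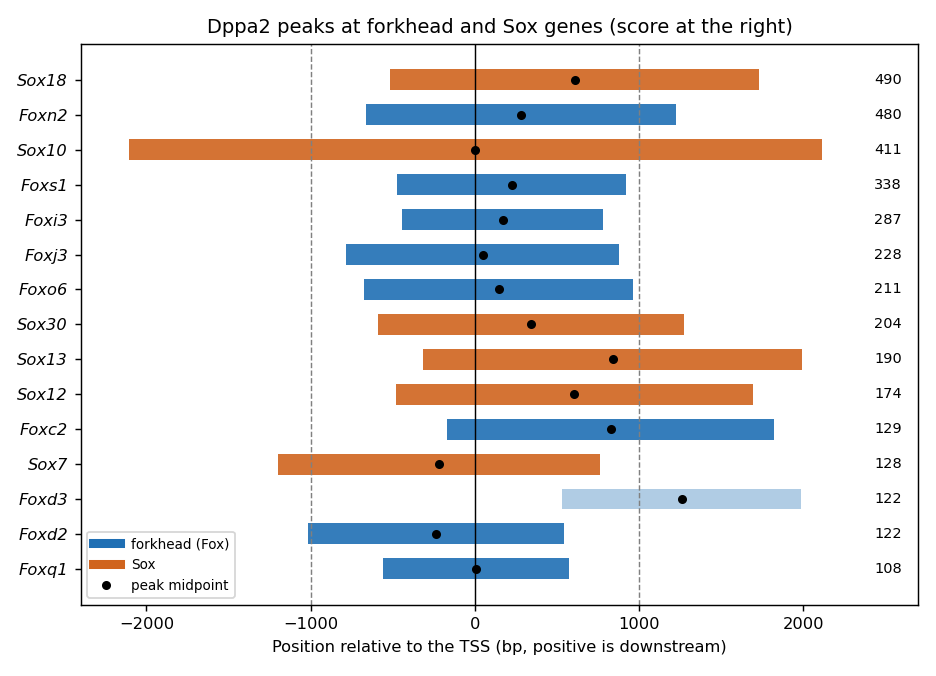
Extent of the Dppa2 peak (bars) and its midpoint (dots) relative to the TSS in bp (x axis, positive downstream) at the 14 bound forkhead and Sox genes and at Foxd3 (pale bar), ordered by score, which is printed at the right. All 14 bars of bound genes cross the TSS, the Sox10 bar is the longest, and the Foxd3 bar begins 531 bp inside the gene.

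The 14 bound genes had 14 different peaks, and the TSS lay inside the peak in all 14. Downstream of the TSS were 12 midpoints, or 85.7%, beside 69.2% for the 3155 other bound genes. How often the peak held the TSS at those other genes was not counted here. The median position was 196 bp downstream (95% exact order-statistic interval 2 to 607 bp), beside 120.0 bp for the 3155 other bound genes. For 4 members, Sox12, Sox18, Foxc2 and Sox13, the midpoint was more than 500 bp downstream, which was 28.6% of members beside 11.2% of other bound genes on either side of the TSS. Nearest to their TSSs were Sox10 at 2 bp, Foxq1 at 4 bp and Foxj3 at 48 bp, followed by Foxo6 at 144 bp, Foxi3 at 169 bp, Foxs1 at 224 bp, Foxn2 at 280 bp and Sox30 at 341 bp, all downstream. Sox12 and Sox18 lay at 606 and 607 bp. The exceptions on the upstream side were Sox7 at 217 bp and Foxd2 at 237 bp. By annotation 6 midpoints lay in coding exons, 3 in UTRs, 3 in introns and 2 upstream of the gene, with no such count made here for other genes. Just inside the limit of 1000 bp were Foxc2 at 826 bp and Sox13 at 838 bp.

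Just outside it was Foxd3 (ENSMUSG00000067261.3), a regulator of pluripotent cells and the neural crest, whose peak (chr4:99323521-99324978) was centred 1259 bp downstream of the TSS with a score of 122. This peak covered 85.4% of the Foxd3 coding sequence. Foxd3 was counted as bound when any base of the peak could lie within 1000 bp or when the window was 5000 bp. Both settings gave 15 of 62 members, or 24.2%, beside 14.5% and 15.5% of the other genes. The share given by CpG content was 20.5% and 21.4%.

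**Figure D3:**
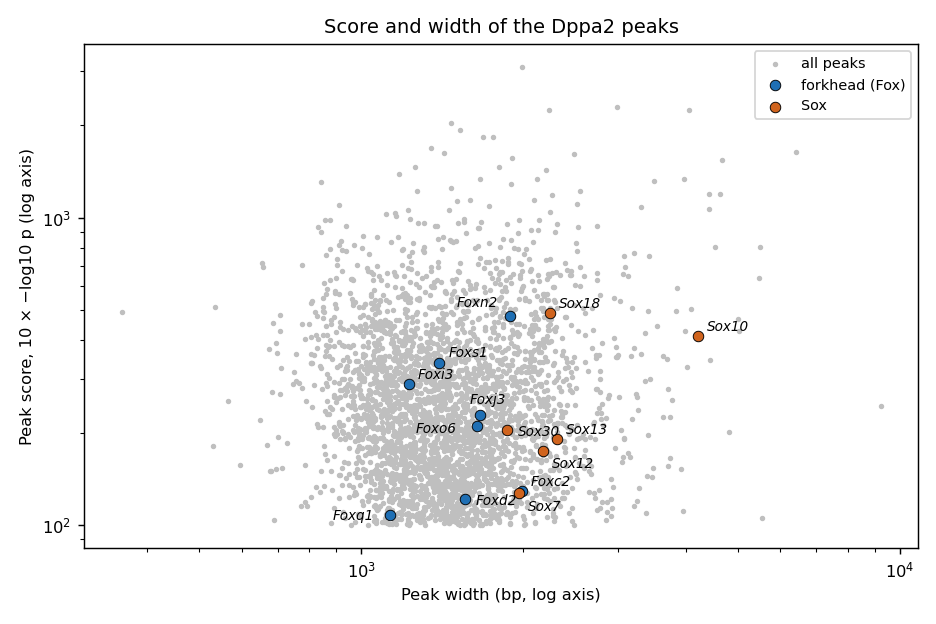
Score (y axis, −log10 of the p-value multiplied by 10, log axis) against width in bp (x axis, log axis) of all 3336 Dppa2 peaks in grey, with the 14 peaks at forkhead genes (blue) and Sox genes (orange) named. The member peaks lie between scores of 108 and 490.4, and Sox10 stands to the right at 4222 bp.

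The scores of the 14 member peaks had a median of 207 (interval 128 to 411), beside 228 for all 3336 peaks, and none exceeded 490.4 where the list reaches 3100. With all peaks cut by score into 4 equal classes, these held 4, 5, 2 and 3 member peaks from the lowest class to the highest. Their median width was 1878 bp (1396 to 2244 bp), against 1433 bp (1413 to 1450 bp) over all peaks. After Sox10, the widest were Sox13 at 2311 bp, Sox18 at 2244 bp and Sox12 at 2172 bp, so that Sox peaks took the top 4 places. Foxc2 at 1989 bp, Sox7 at 1960 bp, Foxn2 at 1892 bp and Sox30 at 1863 bp came next. The narrower ones were all at forkhead genes, with Foxj3 at 1663 bp, Foxo6 at 1638 bp, Foxd2 at 1560 bp, Foxs1 at 1396 bp, Foxi3 at 1225 bp and Foxq1 at 1132 bp. The GC content in the 1000 bp at the midpoint ran from 59.7 to 77.0% with a median of 68.4%, beside 65.2% for all peaks, and the median number of CpGs was 110 beside 81. For peaks centred far inside the gene, the content at the midpoint could exceed that at the TSS. Foxc2 had a GC content of 55.7% around the TSS and 67.8% around the midpoint, and Sox18 had 75 CpGs around the TSS and 108 around the midpoint.

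A read with several alignments had been kept at its best match, so that repeated sequence can enter a peak. Of the 36-mers in the member peaks, the share found more than once in mm9 was 0% in 9 of the 14 peaks and at most 2.79%, in Foxs1. The share was 0% in 66.2% of all peaks, close to the 64.3% of member peaks. Among all peaks 20.3% had a share above 5%, and among the 14 member peaks none did.

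Members of the same subfamily could be set side by side in 10 subfamilies with both bound and unbound entries. In 7 of these, Fox C, I, J and N and Sox C, D and F, every bound member had a higher CpG ratio at the TSS than every unbound one. In Fox N the ratio was 0.932 for Foxn2 and at most 0.639 for the rest, whereas in Fox C the values were close, with 0.995 for Foxc2 and 0.951 for Foxc1. The exceptions were Fox D, where Foxd3 at 0.821 was above Foxd2 at 0.786, Fox O, where Foxo1 was above Foxo6 at 0.927, and Sox E with the CpG-poor Sox10. This comparison was made after the bound members were known and is given as a description.

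Of the 48 entries without a peak at the TSS, 1 (Foxd3) had a midpoint within 10 kb, 14 had the nearest one at 10 to 100 kb and 33 lay farther away. The median distance was 304 kb, beside 191 kb for the 19150 other unbound genes, and the share over 100 kb was 68.8% beside 66.1%. As 98.4% of listed midpoints lay within 1000 bp of an annotated TSS, such distances mostly lead to peaks at the TSSs of other genes. No member of Fox A, B, E, F, G, H, K, L, M, P and R, or of Sox B1, B2 and G, was bound. Foxa2, the endoderm regulator, was 349 kb from the nearest midpoint, and Foxp1 was 426 kb away. Foxh1, which carries Nodal signals with Smad2, was nearer at 28.0 kb. The 4 members on chromosome X, Foxo4, Foxp3, Foxr2 and Sox3, were all unbound, on a chromosome where 1.83% of the other genes were bound.

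**Figure D4:**
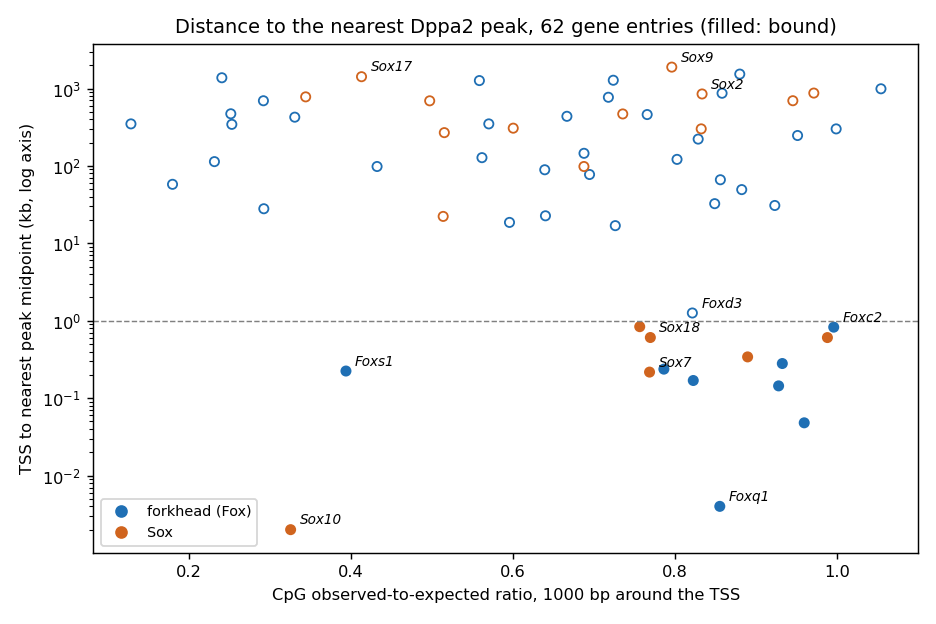
Distance from the TSS to the nearest Dppa2 peak midpoint in kb (y axis, log axis) against the CpG observed-to-expected ratio around the TSS (x axis) for the 62 entries, with bound genes filled and the limit of 1 kb dashed. Bound genes other than Sox10 and Foxs1 lie at a ratio of 0.756 or higher, and unbound genes are spread over the whole range, up to Sox9 at 1889 kb.

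Some forkhead genes are neighbours, and in each of the 3 groups of analysed genes lying within 500 kb a single member was bound. On chromosome 13 this was Foxq1, with Foxf2 67.6 kb and Foxc1 248 kb away. On chromosome 8 it was Foxc2, with Foxf1a 31.8 kb away, and on chromosome 4 Foxd2, with Foxe3 17.2 kb away. Their scores were low, at 108 for Foxq1, 122 for Foxd2 and 129 for Foxc2. At a score of at least 200 none of the 3 groups held a bound member. Foxc1 and Foxc2, paralogs with shared tasks in the mesoderm, thus differed in the call, with Foxc2 bound and Foxc1 not. Foxc2 was also not bound with a window of 500 bp. Weaker signal at Foxc1 would not be listed, so a difference in binding between these paralogs was not shown.

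Genes related to or working with these families were counted in the same way. Of 26 other genes with an HMG box, 5 were bound, or 19.2% (6.55 to 39.4%), including Bbx with a score of 303, Hmgb2 with 177, Hmgb1 with 102 and Smarce1, a subunit of the BAF remodelling complex, with 100.01. Sry and the Wnt effectors Tcf7, Tcf7l1, Tcf7l2 and Lef1 were not. Of 30 partner factors of Sox and Fox proteins, 4 were bound, or 13.3% (3.76 to 30.7%): Smad2 with a score of 359, Pax8 with 221, Pou3f1 with 198 and the remodeller Chd7 with 149.8. Of 15 co-repressors used by forkhead factors, 3 were bound, or 20.0% (4.33 to 48.1%), including Aes at 116 and Tle1 at 110.3. Of 36 genes listed for the signalling that controls FoxO proteins, 6 were bound, or 16.7% (6.37 to 32.8%). These included the PI3-kinase subunit genes Pik3cb at 316 and Pik3r1 at 199.7, and Usp7, a deubiquitinase, at 294, while Sgk3 scored 147 and Mapk9 135. The list also held Mst1r, at 274, whose part in this signalling was not checked. The intervals of all 4 lists contain the 14.1% of other protein-coding genes. At a score of at least 200 the HMG-box list fell to 1 gene, Bbx.

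The recognition sequences of the families themselves were looked for in the 1000 bp at each peak midpoint, on both strands. The forkhead core TGTTTAC was found in 1 of 14 member peaks, that of Sox13, and in 4.92% of all 3336 peaks. The Sox core ACAAAG was found in the Sox10 peak only, or 7.14%, beside 34.5% of all peaks, and ACAATG in the Sox13 peak only, beside 18.4%. Over whole peaks the counts were 2, 3 and 4 of 14, beside 9.02%, 51.3% and 30.6% of all peaks. These AT-rich letters were compared across peaks of different GC content, which was higher in the member peaks.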

How the data were processed

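Anti-V5 ChIP-seq had been performed on V5-Dppa2 CGR8 ESCs and on the parental line, with 1 library each. The peak list of the first was used; the control ChIP and 4 histone modification ChIPs were not analysed here as data of their own. Each deposited score was read as the authors' MACS p-value on a −log10 scale, multiplied by 10, which its lowest value fits. Low-complexity reads had been removed, the rest aligned to mm9 with Bowtie 0.12.7 and duplicates discarded (Picard 1.81 in the submitters' processing notes). Peaks called by MACS 1.4.2 were kept past a p-value threshold and a minimum of reads.

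Midpoints replaced summits, which the list lacks. Positions were compared with GENCODE M1 on mm9. CpG ratios were taken over 1000 bp around the TSS used by most transcripts. With 1 library no test was made; intervals are exact, at 95%, and cover counting error only. All bound members, members without a peak by subfamily, and the bound genes of 4 lists were named by rule, except a few genes and sequences that are not reported here; other unbound genes were named after their values were seen. Members, lists and rules were chosen with earlier results of these data known, and the printed windows, 36-mer counts and subfamily comparison after the values were seen. Calls, CpG-based shares and 36-mer counts were tested on simulated data. Alternatives were a stricter score, other windows, other TSS sets, any base of the peak, other CpG measures and leaving out chromosome X. Python 3.11.15, numpy 2.4.6, pandas 2.3.3, scipy 1.17.1, pysam 0.24.0 and matplotlib 3.10.9 were used.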

Additional observations from a re-analysis of the deposited data

How the results depend on the processing

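No paired analysis was possible because the values come from 1 ChIP library and from no test, and leaving out a replicate was likewise impossible. With the stricter score of 200 the bound members went from 14 to 8, as fewer peaks enter, and the share of the HMG-box list from 19.2% to 3.85%. The bound share of forkhead and Sox genes ran from 12.9% at that score to 24.2% with the 5000 bp window. Beside these stood 8.04% and 15.5% of other genes, and 11.3% and 21.4% given by CpG content. At the main setting, classes of GC content and CpG ratio together gave 26% beside the observed 22.6%. With a 500 bp window 10 members were bound, or 16.1%, beside 12.6% of other genes and 18.1% given by CpG content. The Sox genes fell from 6 to 3 there. Without chromosome X the share was 24.1%, beside 14.7% of other genes and 21% given by CpG content. TSSs of protein-coding transcripts or 1 TSS per gene left 14. The median member score was 313 at the stricter score, and the whole peak in place of 1000 bp gave 2 to 4 members per motif in place of 1. The unknown depth limits what the 48 entries without a peak can show, since weaker signal there would not be listed.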

Other observations

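Other families of developmental transcription factors were counted in the same way, after the values of the forkhead and Sox genes had been seen. Of 17 Klf genes, zinc finger factors that include regulators of pluripotency, 4 were bound, or 23.5% (95% exact interval 6.81 to 49.9%), at a median CpG ratio of 0.873. Of 17 T-box genes 2 were bound, or 11.8%, of 9 Pax genes 1, or 11.1%, of 40 Hox entries 2, or 5.00%, and of 6 Gata genes none. The bound share of genes of like CpG ratio was 23.0% for Klf, 12.9% for T-box, 13.2% for Pax, 16.7% for Hox and 12.6% for Gata. The intervals were 0.611 to 16.9% for Hox and 0 to 45.9% for Gata. No difference between families was tested.

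Genes of 1 exon were bound in 9.57% of cases among other protein-coding genes and in 4 of 14 cases among the members, Foxq1, Foxs1, Foxd2 and Foxc2. The member share was 28.6%, and its interval of 8.39 to 58.1% contains the share of the other genes. CpG content was not matched in this count. With more than 1 exon it was 14.8% and 10 of 48.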
